A study of Mus musculus with 11 samples.

Results

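The 10 circadian clock genes Per1, Per2, Per3, Cry1, Cry2, Clock, Arntl, Nr1d1, Nr1d2 and Dbp were followed across the 4 cell lines of a murine model of melanoma progression. They were taken by name, Arntl being the gene also called Bmal1, and all 10 had a value in the 14272 genes of the processed data. In mammalian cells, CLOCK and ARNTL pair and activate genes that carry an E-box, among them the Per and Cry genes. PER and CRY proteins then enter the nucleus and inhibit that pair, which closes the core loop. The REV-ERB receptors encoded by Nr1d1 and Nr1d2 repress Arntl, and DBP, an output factor, activates genes through the D-box. The loop runs in most cell types, melanocytes included, and each cell keeps its own phase.

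Total RNA of cultured cells was sequenced. Melan-a is a spontaneously immortalized line of nonmalignant mouse melanocytes, and 4C (pre-malignant), 4C11- (non-metastatic melanoma) and 4C11+ (metastatic melanoma) were obtained from it by repeated loss and recovery of attachment. Melan-a and 4C11+ are epithelial, and 4C and 4C11- are mesenchymal-like. The medium of melan-a contained 200 nM PMA, a phorbol ester, and that of the derived lines did not, so line and PMA cannot be told apart in any comparison with melan-a. The analysis used 11 libraries, 2 of melan-a (replicates 2 and 3, replicate 1 being not analysed here) and 3 of each other line. The paper reports triplicates of each line and does not say whether these were separate cultures. All libraries of a group come from 1 line, so each test compares lines as cultured. The hour of harvest, the time since the last change of medium and any synchronization of the cells are not given in the sources used here. Each library is 1 time point, so rhythm, phase and amplitude could not be measured. In bulk RNA, fewer cells that express a gene and less of its RNA per cell cannot be told apart.

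The upstream sequences of Per3, Per1 and Nr1d1 are shown first. Per3 differed between lines. For Per1 and Nr1d1, the only difference called over all 11 libraries of deposited values was that of 4C11+ from the mean of the other 3 lines. Dbp also differed between lines, and its window is not printed. Of the 10 genes, 9 had at least 1 promoter in the RefSeq table for GRCm38.p6, 13 promoters in all, and Per2 had none. Only the 250 bases before each start site were searched, on both strands, for the E-box CACGTG, its variant CACGTT, the D-box TTATGTAA, the ROR half-site AGGTCA and the CRE TGACGTCA with its half-site TGACGT, which it contains. The Per3 promoter (chr4:151044666-151044915, minus strand) is given because Per3 was the clock gene called most often, with its D-boxes in capitals. The Per1 promoter (chr11:69098699-69098948, plus strand) and the Nr1d1 promoter (chr11:98775378-98775627, minus strand) are given because these genes kept the same order of libraries in every line, with the E-box or its variant in capitals. All run 5′ to 3′ and end at the base before the start site.
Per3: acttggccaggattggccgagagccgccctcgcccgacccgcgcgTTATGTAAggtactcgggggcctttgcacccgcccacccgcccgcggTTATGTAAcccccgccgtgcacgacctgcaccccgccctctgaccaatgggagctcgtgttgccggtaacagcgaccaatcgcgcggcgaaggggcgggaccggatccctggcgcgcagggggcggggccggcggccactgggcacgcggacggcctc
Per1: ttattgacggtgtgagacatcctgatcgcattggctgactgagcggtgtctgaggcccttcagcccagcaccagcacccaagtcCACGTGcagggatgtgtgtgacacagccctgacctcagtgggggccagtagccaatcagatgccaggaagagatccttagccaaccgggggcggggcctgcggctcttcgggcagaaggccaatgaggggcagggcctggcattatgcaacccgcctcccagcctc
Nr1d1: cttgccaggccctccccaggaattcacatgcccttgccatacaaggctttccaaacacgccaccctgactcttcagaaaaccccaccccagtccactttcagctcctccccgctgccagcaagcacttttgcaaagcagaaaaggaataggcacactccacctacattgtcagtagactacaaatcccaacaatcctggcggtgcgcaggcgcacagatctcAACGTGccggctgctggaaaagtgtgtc
The Per3 window held 2 copies of the D-box, their first bases 205 and 158 bases before the start. Of 32851 promoters of the same length, 0.819% held this D-box and 0.0183% held it at least 2 times. The printed Per1 window held an E-box 166 bases before the start, a motif found in 6.02% of promoters. A second Per1 promoter (chr11:69099902-69100151, plus strand) held no E-box and 1 CRE half-site, the only CRE match in the 13 windows, and 6.47% of promoters held that half-site. The Nr1d1 window held the variant, on the opposite strand, 28 bases before the start, as did 3.85% of promoters. The Cry1 window held the E-box at 60 and the variant at 79 bases, and the Cry2 window held the variant at 166 bases. For Dbp and Arntl, none of these letters occurred in the windows. The ROR half-site, found in 14% of promoters, occurred once in this Per1 promoter, 1 of the 3 Clock promoters and the Nr1d2 promoter. A match is a run of letters and was not tested as a binding site.

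The deposited values are log2 CPM, the reads of a gene scaled to the size of its library. Within a library, genes with few reads share values 1 read apart, which gave depths of about 3.45 to 7.33 M reads and 8 to 1020 reads behind a single value of a clock gene. Across genes, libraries of the same line correlated with r between 0.888 and 0.981. Some libraries stood apart from their line. In 4C11- library 1, the deviation of a gene from the line mean rose with the GC content of its longest transcript (r = 0.652 across genes), and in 4C11- libraries 2 and 3 it ran the other way (r = -0.389 and -0.648). In 4C11+ library 3 it decreased with GC content (r = -0.343), and in the 2 libraries of melan-a r was 0.318 and -0.318. The clock genes span much of the GC range, from 40.9% in Clock to 61.6% in Dbp. Of the 4C11+ libraries, library 3 was the lowest in 9 of the 10 clock genes. Results are also given on values corrected in each library for transcript length and GC content, a setting chosen after seeing the data. They are given without 4C11+ library 3 too, which stood out in these same clock gene values. Leaving it out raises the 4C11+ mean of those 9 genes by construction, so calls gained without it are not separate support. The 8 listed melanocyte markers were all measured, with summed levels of 10.85 to 13.15 in melan-a and 13.46 to 13.73 in 4C11+ on the log2 CPM scale. In 4C they reached 1.94 to 2.93 and in 4C11- 2.06 to 3.66, with Tyr at no more than 3 reads in every library of both lines and Sox10 in those of 4C. Melan-a was also low in 2 pigment genes, with Tyr at -0.25 and 1.29 log2 CPM (about 3 and 13 reads) and Pmel at 2.41 and 2.95. In 4C11+, Tyr reached 8.39 to 8.70 and Pmel 11.72 to 12.20. The part of these markers in the clock gene differences was not tested. Fibroblast and mesenchymal markers (4 of 6 measured) were at 4.69 to 5.49 in 4C11+ and 4.31 to 7.68 in melan-a, and at 10.94 to 11.12 in 4C11- and 11.17 to 11.36 in 4C. The 2 libraries of melan-a were unlike in Pdgfrb, at 6.90 in library 2 and 0.89 in library 3, and in Pdgfra, at 6.38 and 3.91. Of the keratinocyte markers, 1 of 4 was measured, Krt10, and it lay at 1.48 or lower in every library. None of the 4 leukocyte markers was among the filtered genes. The 4 proliferation markers summed to 9.76 to 10.79 in 4C11+ and 10.94 to 12.08 in 4C, without overlap. In 4C11- they summed to 9.87 to 11.93 and in melan-a to 9.92 to 11.14. Of the 4, Top2a alone did not overlap between 4C11+ (8.09 to 9.66) and 4C (10.20 to 11.39). Mki67, Ccnb1 and Cdk1 overlapped there, and Cdk1 tended the other way, at 8.13 to 8.25 in 4C11+ and 7.20 to 8.15 in 4C. Whether proliferation bears on the clock gene differences was not tested.

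Per3, Dbp, Per1 and Nr1d1 were called in at least 1 comparison, and the other 6 clock genes in none of those over all 11 libraries of deposited values. Lines were compared with limma, and a gene was called at an adjusted p (Benjamini-Hochberg over all genes) under 0.05. Between 4C and melan-a, 0 of the 10 genes were called, beside 15.2% of all genes, and 1 had an unadjusted p under 0.05, beside 27.6%. Between 4C11- and 4C, 0 were called, beside 1.67% of all genes, and 2 had an unadjusted p under 0.05, beside 13.5%. Between 4C11- and melan-a, 0 were called, beside 13.6% of all genes, and 0 had an unadjusted p under 0.05, beside 26.1%. Against 4C11-, the 4C11+ cell line had 1 gene called (Per3, lower), beside 31.1% of all genes, and 4 with an unadjusted p under 0.05, beside 41.8%. Against melan-a it had 1 (Per3, lower), beside 15.9% of all genes, and 3 at that unadjusted level, beside 30.5%. Against 4C it had 2 (Per3 lower, Dbp higher), beside 31.7% of all genes, and 5 at the unadjusted level, beside 42.2%. Set against the mean of the other 3 lines, 4C11+ had 4 genes called, Per3 lower and Dbp, Per1 and Nr1d1 higher, beside 34% of all genes, and the same number at the unadjusted level, beside 44.4%. The mesenchymal-like lines differed from the epithelial lines in 2 genes (Per3 higher, Dbp lower), beside 29.7% of all genes, with 2 at the unadjusted level, beside 39.7%. A test of any difference among the 4 lines called 2, Per3 and Dbp, beside 36.1% of all genes (unadjusted 2, beside 47.1%). These comparisons share libraries. Over all libraries, the share of clock genes called was below that of all genes in each of them except 4C11+ against the other 3 lines. A list of 10 genes gives only coarse shares, and their distance from the share of all genes was not tested. The share of clock genes called also depended on 4C11+ library 3, which stood out in the values of these same genes. Without that library, 4 genes were called against 4C11-, beside 29.2% of all genes, 3 against melan-a, beside 16.3%, and 4 against 4C, beside 31.4%.

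**Figure D1:**
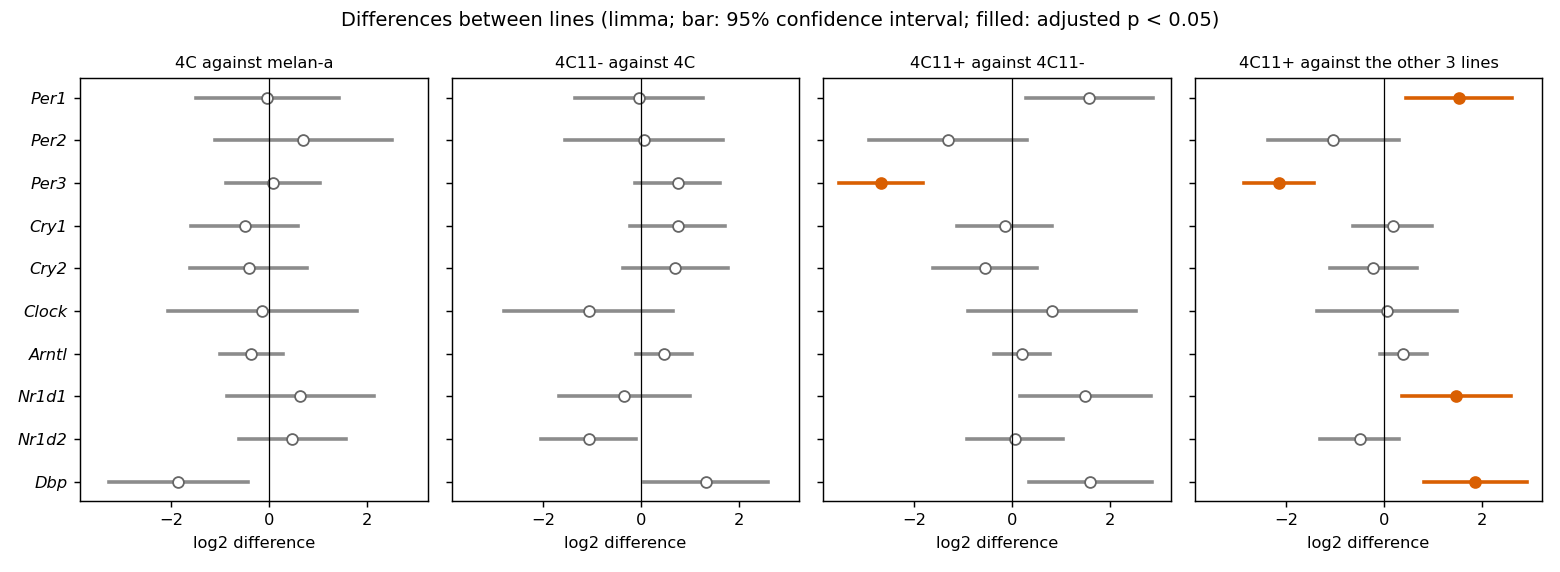
Log2 difference of each of the 10 clock genes in 4 comparisons (x axis, log2 scale; y axis, gene), as limma estimates with 95% confidence intervals, filled where the adjusted p is under 0.05. No gene is filled in the 2 comparisons on the left, Per3 alone is filled in 4C11+ against 4C11- at -2.68, and Per1, Per3, Nr1d1 and Dbp are filled in 4C11+ against the other 3 lines.

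The size of the differences, without regard to any call, can be set against the background. The median absolute log2 difference of the clock genes was 0.45 between 4C and melan-a, where that of all genes was 0.54. It was 0.73 between 4C11- and 4C, where that of all genes was 0.37. It was 1.06 between 4C11+ and 4C11- (all genes 0.70) and 1.08 between 4C11+ and 4C (all genes 0.72). It was 0.41 between 4C11- and melan-a (all genes 0.53), 0.53 between 4C11+ and melan-a (all genes 0.62), 0.76 between 4C11+ and the other 3 lines (all genes 0.63), and 0.45 between mesenchymal-like and epithelial lines (all genes 0.50). The median SD between libraries of a line was 0.74 for the clock genes and 0.48 for all genes. The signed medians of the clock genes were -0.09 between 4C and melan-a (all genes -0.06), 0.27 between 4C11- and 4C (0.01) and 0.19 between 4C11- and melan-a (-0.07). For 4C11+ they were 0.13 against 4C11- (0.12), -0.08 against melan-a (0.03), 0.38 against 4C (0.08) and 0.12 against the other 3 lines (0.08), and for the mesenchymal-like lines -0.23 (-0.09).

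**Figure D2:**
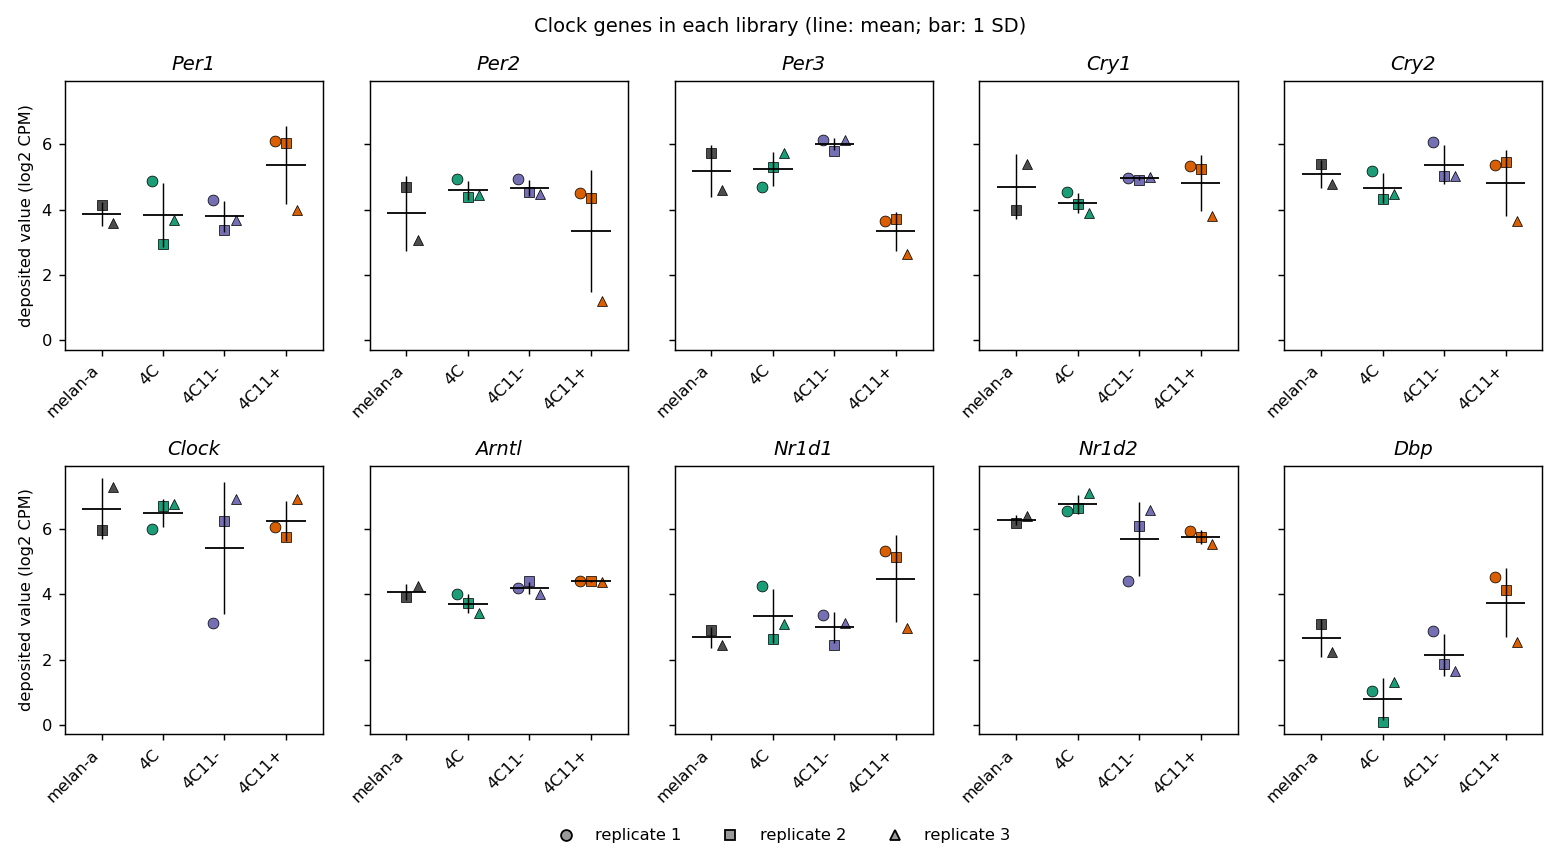
Deposited log2 CPM (y axis) of the 10 clock genes in each of the 11 libraries by line (x axis), with marker shape for the replicate number, a horizontal line for the mean and a vertical bar for 1 SD. The 3 libraries of 4C11+ lie below the other 8 in Per3, and 4C11+ library 3 lies well below the other 2 of its line in Per1, Per2 and Nr1d1.

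Per3 (chr4:151003652-151044665, minus strand, GRCm38) encodes a PER protein that takes a smaller part in the core loop than its paralogs. It was 5.74 and 4.61 log2 CPM in the 2 libraries of melan-a, 4.70, 5.31 and 5.74 in 4C, 6.11, 5.79 and 6.12 in 4C11-, and 3.66, 3.70 and 2.64 in 4C11+. The highest 4C11+ library therefore lay below the lowest of the other 8, a separation seen in 20.6% of all genes. Among the clock genes, Per3 alone separated in this way. It was 4.43-fold lower in 4C11+ than in the other 3 lines (log2 difference -2.15, SE 0.33, limma adjusted p = 0.000456). The separate comparisons gave -2.68 (SE 0.39, limma adjusted p = 0.00035) against 4C11-, -1.92 (SE 0.39, adjusted p = 0.00313) against 4C and -1.84 (SE 0.44, adjusted p = 0.0165) against melan-a. The calls against the other 3 lines, 4C11- and 4C held in every alternative tried. That against melan-a was lost without melan-a library 2, the library with the high Pdgfrb value, and when only these 2 lines were fitted, with an adjusted p of up to 0.157 from limma over its alternatives. Per3 lies within the span of Camta1 on the same strand, with 0 exon bases in common. Between melan-a, 4C and 4C11- no difference in Per3 was called, although all 3 libraries of 4C11- lay above those of melan-a and 4C. Libraries of 4C11- and melan-a did not overlap in 1 of the 10 genes, beside 36.6% of all genes, and those of 4C11- and 4C in 3 (Per3, Cry1 and Dbp), beside 19.3%.

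Per1 (chr11:69095217-69109960, plus strand), the PER gene that serum and other signals induce quickly, was 4.14 and 3.60 log2 CPM in melan-a, 4.86, 2.94 and 3.69 in 4C, 4.31, 3.38 and 3.69 in 4C11-, and 6.09, 6.03 and 4.00 in 4C11+. In 4C11+, libraries 1 and 2 lay above every other library, and library 3 lay within the range of 4C and 4C11-. The line means were 3.87 ± 0.38 (SD, n = 2) in melan-a, 3.83 ± 0.97 (n = 3) in 4C, 3.79 ± 0.47 (n = 3) in 4C11- and 5.37 ± 1.19 (n = 3) in 4C11+. The first 3 means lay closer to each other than the SD of any of them. Per1 was 2.91-fold higher in 4C11+ than in the other 3 lines (log2 difference 1.54, SE 0.50, limma adjusted p = 0.0321). The call was lost without melan-a library 3, 4C library 3, 4C11- library 2, 4C11+ library 1 or 4C11+ library 2, with an adjusted p from limma of up to 0.176. Without 4C11+ library 3 the log2 difference was 2.23 (limma adjusted p = 0.00435), and on corrected values it was 2.01 (limma adjusted p = 0.00339). Single-line differences were 1.58 against 4C11- (95% confidence interval 0.27 to 2.88), 1.54 against 4C (0.24 to 2.85) and 1.50 against melan-a (0.04 to 2.96), and none was called. Without 4C11+ library 3, the log2 difference from 4C11- was 2.26 (limma adjusted p = 0.00842), and Nr1d1 (2.25, adjusted p = 0.00665) and Dbp (2.19, adjusted p = 0.0122) were called there too. Between 4C and melan-a the Per1 interval ran from -1.50 to 1.42, and between 4C11- and 4C from -1.34 to 1.27, so differences within these intervals were not resolved at this number of libraries.

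Per2 (chr1:91415982-91459324, minus strand) encodes the PER protein on which the core loop most depends. It was 4.70 and 3.08 log2 CPM in melan-a, 4.93, 4.39 and 4.44 in 4C, 4.94, 4.55 and 4.49 in 4C11-, and 4.50, 4.34 and 1.20 in 4C11+. The last value, from about 10 reads, was the lowest of all 11 libraries, and the other 2 libraries of 4C11+ lay within or just below the range of 4C and 4C11-. The within-line SD of Per2 was 1.11, larger than that of 90.8% of all genes. The log2 difference of 4C11+ from the other 3 lines was -1.03 (SE 0.62, 95% confidence interval -2.37 to 0.32, limma adjusted p = 0.221). It rested on library 3, without which it was 0.05 (limma adjusted p = 0.938). No comparison called Per2, with intervals from -1.54 to 1.69 between 4C11- and 4C and from -2.92 to 0.31 between 4C11+ and 4C11-. Over all libraries, the highest Per1 mean and the lowest Per2 mean were both in 4C11+, but the latter rested on library 3. Without that library, Per2 in 4C11+ lay above melan-a by a log2 difference of 0.54, which was not called (limma adjusted p = 0.472).

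The cryptochromes Cry1 (chr10:85131700-85185064) and Cry2 (chr2:92403646-92434043), both on the minus strand, encode the main inhibitors of CLOCK and ARNTL. Cry1 was 4.00 and 5.40 log2 CPM in melan-a, 4.54, 4.16 and 3.90 in 4C, 4.98, 4.89 and 5.01 in 4C11-, and 5.34, 5.25 and 3.82 in 4C11+. Its 3 libraries of 4C11- lay above those of 4C, and the log2 difference of 0.76 (SE 0.45) was not called (limma adjusted p = 0.52). Cry2 was 5.38 and 4.78 in melan-a, 5.19, 4.32 and 4.47 in 4C, 6.06, 5.03 and 5.02 in 4C11-, and 5.37, 5.44 and 3.65 in 4C11+. In both genes the lowest library was 4C11+ library 3, and over all libraries of deposited values no comparison called either of them. With 4C11- library 1 and 4C11+ library 3 both omitted, a setting chosen after seeing the data, Cry1 was called higher in 4C11+ than in 4C (log2 difference 1.09, limma adjusted p = 0.0473). Cry2 shares 295 exon bases with the opposite-strand transcript D930015M05Rik.

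The activators Clock (chr5:76209868-76304792, minus strand) and Arntl (chr7:113207465-113314126, plus strand) form the pair that binds the E-box. Clock was 5.95 and 7.28 log2 CPM in melan-a, 6.0, 6.69 and 6.74 in 4C, 3.11, 6.23 and 6.90 in 4C11-, and 6.04, 5.75 and 6.91 in 4C11+. The value in 4C11- library 1, from about 39 reads, was below all others. It lay 2.30 below its line mean as deposited and 1.13 below after correction for length and GC content, and Clock has the lowest GC content of the 10 genes. Arntl was 3.90 and 4.25 in melan-a, 4.00, 3.72 and 3.42 in 4C, 4.19, 4.39 and 4.00 in 4C11-, and 4.41, 4.41 and 4.36 in 4C11+. It varied least of the 10 genes, with a within-line SD of 0.21 (smaller in 7.27% of all genes) and a range of 0.998 over all libraries. Its 4C11+ libraries lay above all those of melan-a and 4C and overlapped with those of 4C11-. The log2 difference of 0.68 from 4C (SE 0.26) was not called as deposited (limma adjusted p = 0.0695), and on corrected values it was 0.72 (limma adjusted p = 0.0353). Libraries of 4C11+ did not overlap with those of 4C in 4 of the 10 genes (Per3, Dbp, Arntl and Nr1d2), beside 51.3% of all genes. With those of melan-a they did not overlap in 4 (Per3, Arntl, Nr1d1 and Nr1d2), beside 46.6%, and with those of 4C11- in 1 (Per3), beside 47%. Arntl shares 33 exon bases with the antisense transcript Gm45355.

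The REV-ERB genes Nr1d1 (chr11:98767932-98775333, minus strand) and Nr1d2 (chr14:18204054-18239127, minus strand) encode repressors of Arntl. Nr1d1 was 2.91 and 2.45 log2 CPM in melan-a, 4.23, 2.63 and 3.09 in 4C, 3.37, 2.45 and 3.13 in 4C11-, and 5.33, 5.15 and 2.95 in 4C11+. As for Per1, libraries 1 and 2 of 4C11+ lay above every other library and library 3 did not. Nr1d1 was 2.79-fold higher in 4C11+ than in the other 3 lines (log2 difference 1.48, SE 0.51, limma adjusted p = 0.0427). The call held without 4C library 1, 4C11- library 1 or 4C11+ library 3, was lost when any other single library was left out and without the mean-variance trend, and had adjusted p values from limma of up to 0.231. Without 4C11+ library 3 the log2 difference was 2.24 (limma adjusted p = 0.00321) and on corrected values 1.67 (limma adjusted p = 0.0104). Nr1d1 and Thra overlap on opposite strands with 263 shared exon bases. The paper names a stranded library kit, but the strand setting of the read counting is not given in the sources used here. Whether reads were shared between such genes could therefore not be told. Thra averaged 6.15 in 4C11-, 5.72 in 4C, 5.08 in melan-a and 4.57 in 4C11+, lowest in the line where Nr1d1 was highest. Nr1d2 was 6.16 and 6.38 in melan-a, 6.53, 6.63 and 7.08 in 4C, 4.39, 6.09 and 6.57 in 4C11-, and 5.94, 5.76 and 5.53 in 4C11+. It overlapped between 4C11- and 4C and was not called there (log2 difference -1.06, SE 0.45, limma adjusted p = 0.314). The low value again came from 4C11- library 1, 1.29 below its line mean as deposited and 0.55 below after correction. Against 4C, Nr1d2 in 4C11+ had a log2 difference of -1.01 (limma adjusted p = 0.107), which was -0.87 on corrected values (limma adjusted p = 0.0259). With 4C11- library 1 and 4C11+ library 3 both omitted it was -0.90 (limma adjusted p = 0.0158).

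Dbp (chr7:45705088-45710203, plus strand) encodes a PAR bZIP factor that binds the D-box. It was 3.08 and 2.24 log2 CPM in melan-a, 1.03, 0.08 and 1.30 in 4C, 2.88, 1.87 and 1.66 in 4C11-, and 4.54, 4.12 and 2.54 in 4C11+. The 3 values in 4C, from about 8 to 14 reads each, lay below those of all other libraries. In 4C11+, libraries 1 and 2 were the highest of the 11, and library 3 fell within the range of 4C11- and melan-a. Dbp was 7.61-fold higher in 4C11+ than in 4C (log2 difference 2.93, SE 0.58, limma adjusted p = 0.00244), a call held in every alternative. It was 3.65-fold higher in 4C11+ than in the other 3 lines (log2 difference 1.87, SE 0.48, limma adjusted p = 0.0111), a call lost without 4C11+ library 1 or 2 at an adjusted p from limma of up to 0.0851. It was 3.31-fold lower in the mesenchymal-like lines than in the epithelial lines (log2 difference -1.73, SE 0.43, limma adjusted p = 0.0104), although 4C11- and melan-a overlapped. Per3 differed in the opposite direction there (log2 difference 1.38, SE 0.30, limma adjusted p = 0.00412), and its libraries overlapped too. None of the 10 genes separated the libraries of these pairs of lines, as 13.9% of all genes did. Between 4C and melan-a, Dbp and Nr1d2 did not overlap, 2 of the 10 genes beside 42.1% of all genes. The log2 difference of Dbp there was -1.85 (SE 0.65, limma adjusted p = 0.0781), and on corrected values -2.12 (limma adjusted p = 0.0133). Dbp and Sphk2 overlap on opposite strands with 539 shared exon bases, and Sphk2 averaged 3.88 in 4C, 4.21 in melan-a, 4.24 in 4C11- and 4.53 in 4C11+, an order of lines like that of Dbp apart from melan-a and 4C11-, which change places.

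Levels were compared between genes only after division by the length of the longest transcript, as log2 CPM per kilobase. On that scale Nr1d2 had the highest mean of the 10 genes in every line, from 3.46 in 4C11- to 4.53 in 4C. The lowest was Nr1d1 in melan-a (1.24), Dbp in 4C (-0.07) and 4C11- (1.26), and Per3 in 4C11+ (0.75). Per3 had rank 2 of the 10 genes in 4C11- (3.42) and rank 10 in 4C11+. Per1 had rank 8 in melan-a and 4C11-, rank 9 in 4C and rank 3 in 4C11+ (3.15). Per2 was at ranks 6 to 9 in every line. Neighbours were often closer than their spread between libraries: in 4C11-, Cry2 (3.38 ± 0.60) and Cry1 (3.36 ± 0.06) could not be ordered, and in 4C11+ neither could Per1 (3.15 ± 1.19) and Nr1d1 (3.03 ± 1.32).

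**Figure D3:**
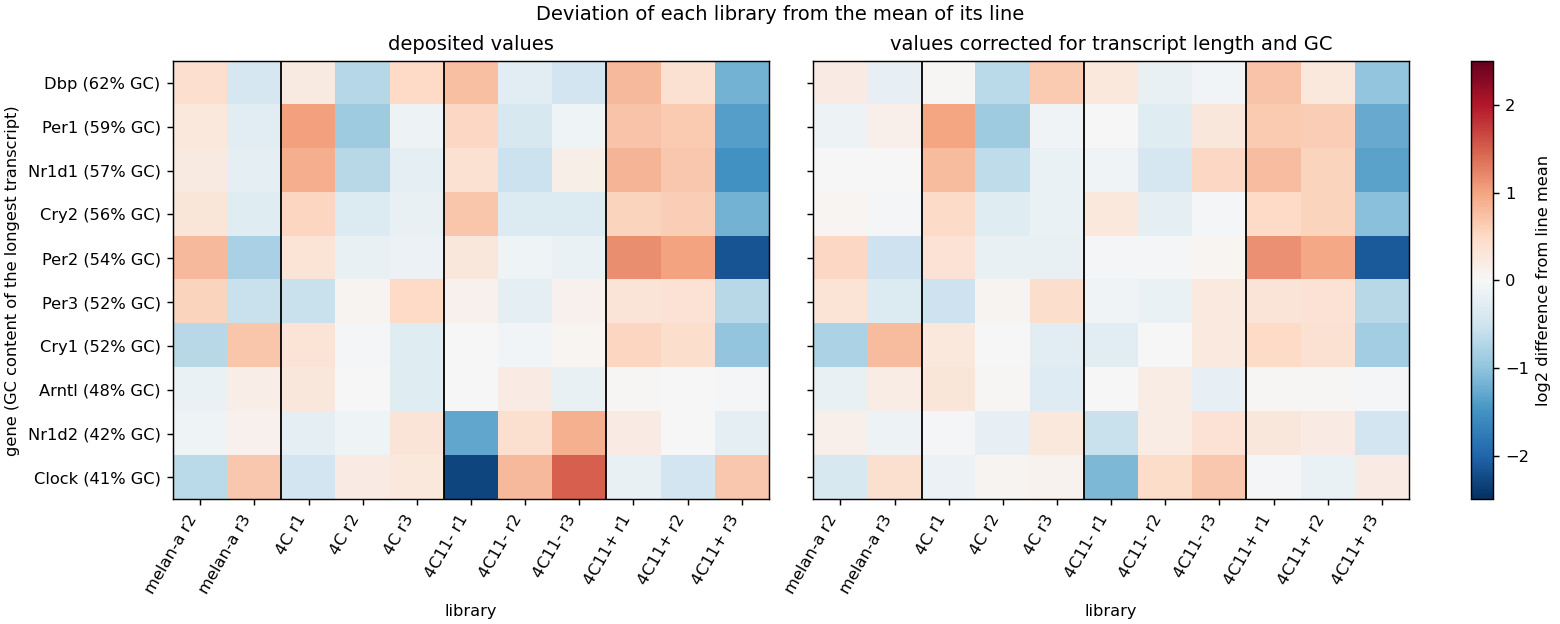
Deviation of each library (x axis) from the mean of its line for the 10 clock genes (y axis, sorted by GC content), as a log2 difference in colour, for the deposited values on the left and for values corrected for transcript length and GC content on the right. In 4C11+ library 3, Per2 (-2.15), Nr1d1 (-1.52) and Per1 (-1.37) are low in both panels, whereas the low Clock value of 4C11- library 1 (-2.30) is less marked on the right (-1.13).

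Within lines, several clock genes moved together from library to library. Per1 and Nr1d1 had the same order of libraries in all 4 lines, the only 1 of 45 pairs of clock genes to do so. Across the 11 libraries, the deviations of these genes from their line means had r = 0.98 as deposited and 0.97 after correction for length and GC content (7 residual degrees of freedom). Cry2 followed the same pattern, with r = 0.94 with Per1, 0.93 with Nr1d1 and 0.90 with Per2, and these were 0.91, 0.92 and 0.91 after correction. Without 4C11+ library 3, r was 0.97 for Per1 and Nr1d1, 0.86 for Cry2 and Per1, 0.81 for Cry2 and Nr1d1 and 0.72 for Cry2 and Per2 (6 residual degrees of freedom). In that library Per2 lay 2.15, Nr1d1 1.52, Per1 1.37, Dbp 1.19, Cry2 1.17, Cry1 0.99 and Per3 0.69 below the line mean. There Clock lay 0.68 above its line mean, and Arntl lay 0.04 below. Clock and Nr1d2 had r = 0.87 as deposited and 0.49 after correction, and Clock and Cry2 had -0.74 and -0.40. The values of 1 library share its depth and base composition, and whether they also share an hour of harvest was not tested.

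Of the 38 other clock genes listed, 36 were measured, and Npas2 and Rorb were not among the filtered genes. In 4C, 3 of the 36 were called higher than in melan-a, beside 7.64% of all genes, and 2 lower, beside 7.55%. In 4C11-, 0 were higher than in 4C, beside 1.26%, and 1 lower, beside 0.406%. In 4C11- against melan-a, 3 were higher, beside 7.55%, and 3 lower, beside 6.05%. In 4C11+ against 4C11-, 3 were higher, beside 15.6%, and 5 lower, beside 15.4%. Against melan-a the numbers were 2, beside 8.39%, and 3, beside 7.52%, and against 4C they were 2, beside 17.1%, and 5, beside 14.6%. In the mesenchymal-like lines 5 were higher, beside 14.3%, and 2 lower, beside 15.3%. In 4C11+ against the other 3 lines 2 were higher, beside 18.3%, and 5 lower, beside 15.8%, and 11 of the 36 differed among the 4 lines, beside 36.1%. In no comparison were all measured members of a role group with 2 or more members called.

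The D-box factors share with Dbp the site found in the Per3 promoter. Hlf, an activator of the same PAR bZIP family, was 3.97 and 2.41 log2 CPM in melan-a, 6.20, 5.84 and 6.26 in 4C, 4.85, 5.30 and 5.31 in 4C11-, and 1.18, 1.44 and 1.44 in 4C11+. It was called lower in 4C11+ than in each other line, with log2 differences of -4.75 from 4C, -3.80 from 4C11- and -1.83 from melan-a (limma adjusted p = 2.46e-06 for the first). Hlf was thus lowest in the line in which Per3 was also lowest and Dbp highest. Of all genes, 15.8% were called lower in 4C11+ than in the other 3 lines. In melan-a, 4C and 4C11-, Hlf averaged 3.19, 6.10 and 5.16, and Per3 averaged 5.17, 5.25 and 6.01, a different order. Whether any D-box factor acts on Per3 in these cells was not tested. Tef, the other activator of the family, was 8.33 and 6.98 in melan-a, 7.79, 6.94 and 7.47 in 4C, 7.78, 7.31 and 7.41 in 4C11-, and 8.54, 8.55 and 6.99 in 4C11+, and was called in no comparison. Nfil3, the repressor that binds the same site, lay between 3.80 and 5.35 in all libraries and was called in no comparison. In both Tef and Nfil3, 4C11+ library 3 was again the lowest of its line.

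**Figure D4:**
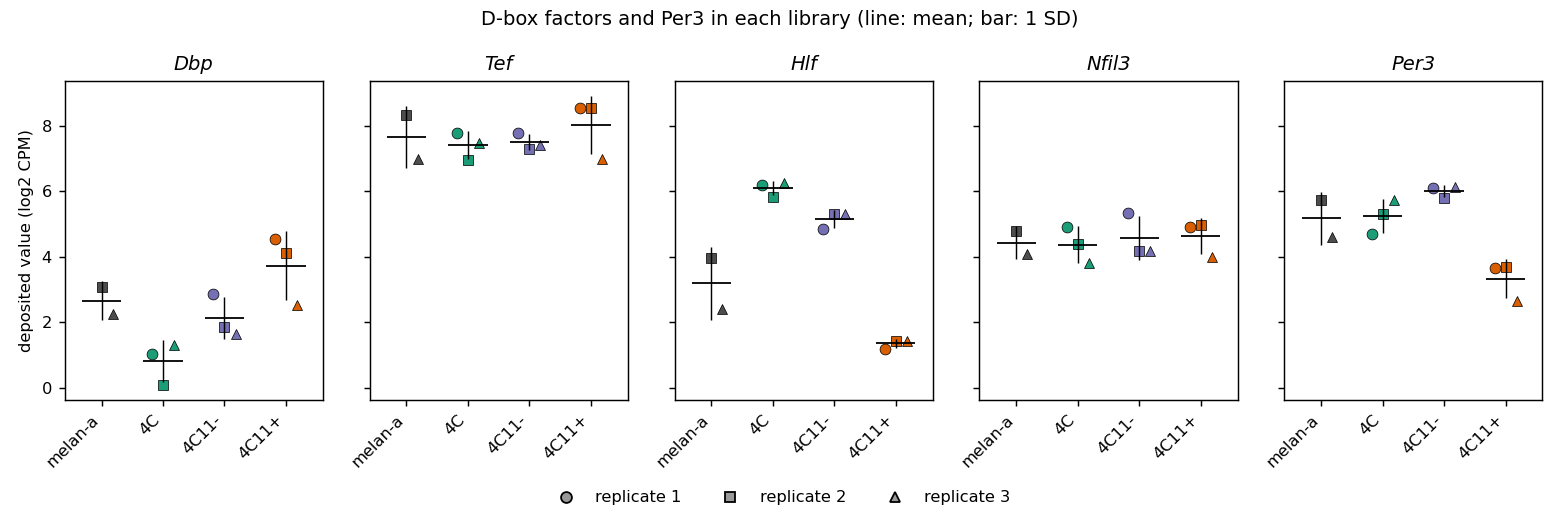
Deposited log2 CPM (y axis) of the D-box factors Dbp, Tef, Hlf and Nfil3 and of Per3 in each of the 11 libraries by line (x axis), with marker shape for the replicate number, a horizontal line for the mean and a vertical bar for 1 SD. Hlf (1.18 to 1.44) and Per3 (2.64 to 3.70) are lowest in 4C11+, where 2 libraries of Dbp are highest.

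Among the receptors that activate Arntl, Rora was lower in 4C11- than in 4C (log2 difference -2.71, limma adjusted p = 0.0195), the only listed clock gene called there. It was higher in 4C11+ than in 4C11- (2.32, limma adjusted p = 0.00447), with values of 0.85 to 2.23 in 4C11- and 3.23 to 4.19 in 4C11+. Arntl itself was called in neither comparison. Its paralog Arntl2 was 1.35 and 2.19 in melan-a, 1.21, 2.49 and 2.15 in 4C, 1.73, 1.81 and 2.32 in 4C11-, and 2.78, 1.68 and 2.64 in 4C11+, and was not called. Of 3 E-box repressors, Bhlhe40 was lower in 4C11+ than in 4C (log2 difference -1.25, limma adjusted p = 0.0408). Of 6 kinases of PER and CRY, Prkaa2, a catalytic subunit of AMP-activated kinase, was higher in 4C11+ than in 4C11- (5.41, limma adjusted p = 0.000292). Its values in 4C11- rest on about 2 to 20 reads. Csnk1e, casein kinase 1 epsilon, was lower in 4C11+ than in 4C11- (-0.78, limma adjusted p = 0.0273). Gsk3b was lower in 4C11- than in melan-a (-1.47, limma adjusted p = 0.00992). Of 4 ubiquitin ligase subunits, Fbxl21 was lower in 4C11+ than in 4C11- (-3.23, limma adjusted p = 0.00558). It had about 0 to 1 reads in 4C11+ and 11 to 25 in 4C11-, so the size of this difference depends on the floor of the values.

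Of 5 partners of the PER and CRY complex, Nono was higher in 4C11- than in melan-a (log2 difference 0.99, limma adjusted p = 0.00239). Of 6 chromatin cofactors, Sirt1 was higher (1.75, limma adjusted p = 0.0042) and Crebbp lower (-1.06, limma adjusted p = 0.0407) in 4C11- than in melan-a. Hdac3, the deacetylase recruited by REV-ERB, was lower in 4C11+ than in melan-a (-1.09, limma adjusted p = 0.0141). In melan-a, 4C, 4C11- and 4C11+, Sirt1 averaged 2.94, 4.46, 4.69 and 4.58, and Hdac3 averaged 7.50, 6.57, 6.77 and 6.41. In both genes the means of all derived lines lay on the same side of melan-a. Of 6 output genes, Klf9 was lower in 4C11+ than in 4C (-2.61, limma adjusted p = 0.000515), with 2.00 to 2.28 in 4C11+ and 4.47 to 4.92 in 4C. Alas1, the first enzyme of heme synthesis, was higher in 4C11+ than in melan-a (1.14, limma adjusted p = 0.035), and Noct was lower in the mesenchymal-like lines (-0.77, limma adjusted p = 0.027).

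Over the 11 libraries, the genes whose deposited values were most like those of Per1 were Lins1 (r = 0.965), Nr1d1 (r = 0.963) and Nrde2 (r = 0.962). For Per2 they were Arrdc4 (r = 0.968), Trmt9b (r = 0.961) and Kctd6 (r = 0.943). These are the highest of 14248 genes with a symbol, and all of them share the same libraries and 4 lines. Per1 and Per2 themselves had r = 0.17 over the same libraries, against r = 0.83 for their deviations within lines, which was 0.59 without 4C11+ library 3.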

How the data were processed

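According to the methods, the authors trimmed the reads with Trimmomatic, aligned them with STAR to the mouse genome (Ensembl 90, GRCm38), assigned them to genes with Rsubread, kept the genes that reached 1 CPM in 4 or more libraries and ran voom of limma. The libraries were made with a stranded total RNA kit. Versions and the strand setting of the read counting are not given in the sources used here. The deposited values are log2 CPM, 1 library per file, and share a highest value of 13.69, as after quantile normalization. They were used as they are.

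Line means were fitted over all 11 libraries with limma 3.58.1 (R 4.3.3) with a mean-variance trend, and p-values were adjusted over 14272 genes (Benjamini-Hochberg). P-values measure the spread between the libraries of a line, which are not stated to be separate cultures. Folds are ratios on the log2 CPM scale. In data simulated for 4C11+ against 4C11- (14272 genes, 200 changed), a log2 difference of 1 was recovered in 0% and of 2 in 59.5%, with 6 unchanged genes called. In the deposited values 31.1% of all genes were called there, so the adjusted threshold was stricter in the simulation. These shares are therefore not the recovery of the reported tests. Reads behind a value are the number of distinct lower values in the library, an approximation. The approximate depths came from the step at 40 reads, as if the values were only scaled to library size. Lengths and GC contents came from GENCODE M21 transcripts. Further steps used Python 3.11.15, NumPy 2.4.6, SciPy 1.17.1 and pandas 2.3.3. All 10 genes were named. Of the other clock genes, up to 3 per role with the largest difference among those called, and the paralogs of Arntl and Clock, were named. One gene that this rule names is not reported here. The genes and lists were chosen with earlier results of these data known. No group holds enough libraries for a test of single outlying samples.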

Additional observations from a re-analysis of the deposited data

How the results depend on the processing

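A further quantile normalization, centring on the median, omission of genes with a mean log2 value under 1, no mean-variance trend, robust empirical Bayes, a replicate block, a fit of the compared lines alone and the omission of each library were tried. The further quantile normalization and the centring could change little, because the libraries already share a highest value and have nearly equal medians. Of 1580 recomputed differences, 1519 kept their side of the threshold, 18 lost and 43 gained a call, 0 called differences changed sign and 86 differences not called did. Most of these differences were not called in the main fit, so keeping their side mostly meant staying not called. With the replicate block, 1 clock gene was called between 4C and melan-a (Dbp), beside 15.9% of all genes, and 4 between 4C11+ and 4C11- (Per3, Per1, Dbp and Nr1d1), beside 33%. Libraries with the same number had correlated deviations (r over 0.1) in 9 of 15 pairs, with r from -0.28 to 0.46. Differently numbered libraries could be as alike, such as 4C11- library 1 and 4C11+ library 2 (r = 0.43). The deviations of the 2 melan-a libraries are mirror images, so their pairs are not separate evidence. These values do not settle whether the numbers pair libraries, and the main fit was made without pairing. With the compared lines alone, 0 genes were called between 4C11+ and melan-a, beside 10.1% of all genes. On values corrected for length and GC content, calls numbered 1 between 4C and melan-a (beside 21.7% of all genes), 4 between 4C11+ and 4C11- (40.1%), 2 between 4C11+ and melan-a (21.7%), 5 between 4C11+ and 4C (39.2%) and 4 among the 4 lines (47.5%), so calls over all genes rose too. With 4C11- library 1 and 4C11+ library 3 both omitted these were 1 (19.6%), 4 (35.7%), 4 (23.6%), 6 (39.9%) and 4 (43.6%). Both settings were chosen after seeing the data, and the cause of the added calls was not tested. Leaving out 1 library gave 0 to 1 calls between 4C and melan-a (10.2 to 18.7% of all genes), 1 to 4 between 4C11+ and 4C11- (20.9 to 33.7%), 0 to 3 between 4C11+ and melan-a (7.63 to 20.1%), 2 to 4 between 4C11+ and 4C (21.8 to 37.3%), 1 to 5 between 4C11+ and the other 3 lines (21 to 40.1%), 2 to 3 between mesenchymal-like and epithelial lines (23.7 to 34%) and 2 to 4 among the 4 lines (23.9 to 41.3%). It gave 0 to 0 for 4C11- against 4C and against melan-a. Without 4C11+ library 3 the counts rose to 1 (14.8%), 4 (29.2%), 3 (16.3%), 4 (31.4%) and 4 (34%) in the order given for corrected values, without 4C library 1 to 4 between 4C11+ and 4C (31.3%), and without 4C11- library 1 to 2 between 4C11+ and 4C11- (32.7%). Against the other 3 lines, 4C11+ had 1 gene called without its library 1 or 2 (21% and 21.3% of all genes), and 2 without melan-a library 3 (36.9%), 4C library 3 (30.9%) or 4C11- library 2 (30.1%). Without melan-a library 2, 0 were called between 4C11+ and melan-a (8.3%). Values such as those of Dbp in 4C rest on few reads, about 8 to 14 each.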
